A study of Mus musculus with 10 samples.

Results

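The albumin gene cluster of the mouse was examined in sections of liver tissue from a MYC-driven model of hepatoblastoma, an embryonal liver tumour of early childhood. It was taken as the 4 gene rows named Gc, Alb, Afp and Afm, of 31053 gene rows in the files, and all 4 had counts in all 10 sections. Sections were placed on Visium slides, on which barcoded spots capture polyadenylated RNA, and each captured molecule is counted once through its unique molecular identifier (UMI). Several cells can lie over 1 spot, and the values therefore describe spots and sections and not cell types. The 10 sections came from 7 tissues. Of these, NEJ146 gave 4 sections that were adjacent, while 1 section came from each of NEJ687, NEJ677, NEJ654, NEJ638, NEJ634 and NEJ723. The labels call every sample hepatoblastoma and give no genotype, treatment, sex or age for a section. Each tissue was therefore kept as its own group, and tumour was not tested against normal liver. The study's text names NEJ634, NEJ687, NEJ723 and NEJ146 as tumours. It describes the other livers of its spatial data as healthy, which leaves NEJ638, NEJ654 and NEJ677 as the healthy livers. The study's text was not used to form groups. Its ABC-Myc mice carry Alb-Cre, a Cre recombinase driven by the mouse albumin enhancer and promoter, together with a human MYC transgene behind a stop cassette in the Rosa26 locus, on a C57BL/6J background. The model is thus switched on in cells that use the regulatory sequence of a member of the cluster, and littermates lacking 1 or both alleles served as controls in the study.

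The 4 genes descend from a common ancestor and encode secreted carrier proteins of blood plasma made mainly by hepatocytes. Alb encodes albumin, which carries fatty acids, hormones and drugs and holds water in the vessels. Afp encodes alpha-fetoprotein, the main plasma protein of the fetus, made by yolk sac and fetal liver and silenced in the liver after birth; it is a clinical serum marker of hepatoblastoma. Afm encodes afamin, which binds vitamin E, and Gc encodes the vitamin D binding protein, which also binds actin released from damaged cells. In the adult liver lobule, hepatocytes near the portal vein (periportal) and near the central vein (pericentral) express different genes, and albumin is known as a periportal product.

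In GRCm38 (GENCODE M21), Alb (ENSMUSG00000029368) spans chr5:90460897-90476602, Afp (ENSMUSG00000054932) spans chr5:90490737-90508907 and Afm (ENSMUSG00000029369) spans chr5:90518932-90553543, all on the plus strand. The 3 genes lie head to tail within 92.647 kb, with 14.134 kb between Alb and Afp and 10.024 kb between Afp and Afm. Gc (ENSMUSG00000035540) lies 1003 kb before Alb at chr5:89417522-89457898, on the minus strand. The promoters of all 4 members were found in the RefSeq table for GRCm38.p6. The 150 bases before each RefSeq start are shown 5′ to 3′ on the strand of the gene because all 4 held the letters GTTAATNAT. Capitals mark that match. The windows are chr5:89457899-89458048 for Gc, chr5:90460720-90460869 for Alb, chr5:90490564-90490713 for Afp and chr5:90518799-90518948 for Afm.
Gc: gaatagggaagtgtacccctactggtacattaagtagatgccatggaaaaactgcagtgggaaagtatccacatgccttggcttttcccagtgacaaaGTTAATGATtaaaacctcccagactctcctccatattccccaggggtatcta
Alb: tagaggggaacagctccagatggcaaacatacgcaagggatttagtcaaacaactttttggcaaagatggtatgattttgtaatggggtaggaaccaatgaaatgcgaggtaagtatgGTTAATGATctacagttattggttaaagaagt
Afp: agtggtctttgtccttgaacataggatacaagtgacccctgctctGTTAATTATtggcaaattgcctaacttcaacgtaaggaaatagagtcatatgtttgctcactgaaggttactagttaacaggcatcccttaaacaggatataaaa
Afm: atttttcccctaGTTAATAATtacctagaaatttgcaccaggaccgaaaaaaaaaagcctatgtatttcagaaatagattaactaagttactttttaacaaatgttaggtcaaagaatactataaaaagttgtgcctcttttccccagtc

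The match began 52 bases before the RefSeq start in Gc, 32 bases before it in Alb, 105 in Afp and 138 in Afm, always on the strand of the gene. The GENCODE start lies 27 bases after the RefSeq start in Alb, 23 after it in Afp and 17 before it in Afm. Of 32851 promoters in the table, 0.801% held GTTAATNAT on either strand within the 300 bases from 250 before to 50 after the start. These letters were picked after the 4 sequences had been read, so the share is a description. Of 5 further motifs searched on both strands in the same windows, TATAAA was found in Afp and Afm (13.6% of all promoters), and TGTTTGC, part of the sequence bound by FOXA factors, in Alb and Afp (5.07%). AGGTCA, the core motif of nuclear receptors, was found in Afm (16.3%) and CACGTG, an E box of the kind bound by MYC, in no member (7.15%). TTNNGNAA, a C/EBP-like pattern, was found in all 4 and in 40.7% of all promoters. A match of letters does not show a bound site.

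The sections held 61627315 to 117556249 UMIs, and 1890 to 4878 spots over tissue with a median of 12133.5 to 28926.5 UMIs. The 4 genes together took 1.02% to 2.004% of the tissue UMIs in NEJ146, NEJ634, NEJ723 and NEJ687 and 5.64% to 9.11% in NEJ638, NEJ654 and NEJ677. In the 6 tissues with deposited calls, off-tissue spots had a median of 6660 to 11895 UMIs, and the CPM of Alb in them was 0.910 to 1.33 times that of the tissue spots, so RNA of these genes was captured beyond the called tissue. NEJ146 had no calls, and its spots with 8000 or more UMIs were taken as tissue, a rule that 44.0% to 69.8% of the off-tissue spots of the other tissues also met. NEJ146 was also labelled as total RNA instead of polyA RNA, was processed with another software version and had a mitochondrial share of 6.78% to 7.22% of UMIs against 2.46% to 3.86% in the other tissues, so its tissue and its processing cannot be told apart. Keeping only NEJ146 spots of low mitochondrial share moved none of its 4 levels by more than 1.04 times. All 6 hepatocyte markers (Apoa1, Apob, Ttr, Cps1, Hnf4a, Serpina1c) were at 1 CPM or more in all 7 tissues, and their summed level ran from 11533 ± 1044 CPM (SD, n = 4) in NEJ146 to 36616 CPM in NEJ677. Markers of other cell types also differed between the tissues. Of erythroid genes, Hba-a1, Hbb-bs, Alas2 and Gata1 summed to 7430 ± 513 CPM (SD, n = 4) in NEJ146, 6499 in NEJ687, 1884 in NEJ723 and 679.95 in NEJ634, and to 78.2 to 204 CPM in NEJ638, NEJ654 and NEJ677, where Gata1 was under 1 CPM. The globins made up most of these sums, and Alas2, an enzyme of haem synthesis, did not split the tissues so, with 50.7 CPM in NEJ677 and 5.31 CPM in NEJ634. The neutrophil list (S100a8, S100a9, Ngp, Camp, Ltf) summed to 1045 CPM in NEJ687, 677 in NEJ634, 385 in NEJ723 and 329 ± 78.6 in NEJ146, and to 7.48 to 18.1 CPM in NEJ638, NEJ654 and NEJ677, where Ngp, Camp and Ltf were under 1 CPM, a split of the tissues like that of Afp. The macrophage list (Clec4f, Adgre1, Cd68, Marco, Cd5l) ran from 158 CPM in NEJ723 to 1278 in NEJ687, with Clec4f, the Kupffer cell gene, under 1 CPM in NEJ723. The bile duct list (Krt19, Krt7, Sox9, Epcam, Spp1) ran from 74.0 to 136 CPM except for 495 CPM in NEJ634, the stromal list (Col1a1, Col3a1, Dcn, Lrat, Pdgfrb) from 230.5 to 1098 CPM and the endothelial list (Stab2, Clec4g, Pecam1, Kdr, Lyve1) from 65.9 to 179 CPM. Within the bile duct list, NEJ723 had the highest Epcam (58.8 CPM, against 54.8 in NEJ634 and 1.93 to 7.27 elsewhere) and the lowest Spp1 (31.5 CPM). The intestine list (Vil1, Fabp2, Rbp2, S100g, Cdx2) summed to 1464 CPM in NEJ723 and to 94.9 to 386 CPM elsewhere, with Cdx2 under 1 CPM in every tissue. The part of these other cells in the levels below was not tested, and fewer hepatocytes and less RNA per hepatocyte cannot be told apart in such sections.

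The cluster fell into opposite patterns over the tissues. Alb, Afm and Gc were highest in NEJ638, NEJ654 and NEJ677, and Afp was far lower in those tissues than in NEJ146, NEJ634, NEJ723 and NEJ687. Levels are UMIs of the gene per 1000000 UMIs of the tissue spots (CPM). A difference between tissues that follow each other in the order of levels was called larger than the spread where it exceeded the range of that gene over the 4 adjacent NEJ146 sections and the 95% exact Poisson intervals did not overlap. For steps to or from NEJ146 the section range alone was used. The Poisson intervals cover counting error only, the section range covers 1 tissue, and no value covers the spread between animals.

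Alb was at 85699.9 CPM in NEJ654, 69835 in NEJ638 and 51663 in NEJ677. It was at 13131 CPM in NEJ634, 8633 in NEJ687 and 7839 in NEJ723. The NEJ146 sections held 10592, 11289.7, 9609 and 6764 CPM, a mean of 9564 ± 1989.7 (SD, n = 4), and section 4 was the lowest of the 4 sections for all 4 genes. The 3 high tissues did not overlap with the others. The step from NEJ677 down to NEJ634 was 3.93-fold and the only one in the order that exceeded the spread.

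Gc was high in the same 3 tissues as Alb, with a smaller span. It was at 5054 CPM in NEJ654, 4452 in NEJ677 and 4189 in NEJ638, and at 2699.8 in NEJ687, 2589.5 in NEJ634 and 2539 in NEJ723. The NEJ146 sections held 2374, 2315, 2181 and 1832 CPM (2176 ± 243, SD, n = 4). The 1.55-fold step from NEJ638 to NEJ687 was the one neighbouring difference larger than the section spread.

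Afm was at 375 CPM in NEJ654, 356 in NEJ638 and 239 in NEJ677. It was at 67.8 CPM in NEJ634, 57.4 in NEJ687 and 26.9 in NEJ723, and the NEJ146 sections held 73.5, 68.5, 65.1 and 55.8 CPM (65.7 ± 7.47, SD, n = 4). Steps beyond the spread separated NEJ638 from NEJ677 (1.49-fold), NEJ677 from NEJ634 (3.53-fold) and NEJ687 from NEJ723 (2.13-fold), so NEJ723 stood below the other tissues of the low group.

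Afp was at 4248 CPM in NEJ634, 4083 in NEJ687 and 3280.2 in NEJ723. The NEJ146 sections held 1966, 2441, 2107 and 1579.6 CPM (2023 ± 357, SD, n = 4), which was 1.62-fold below NEJ723. Against these, NEJ638 was at 9.63 CPM (95% exact Poisson interval 8.80 to 10.5, 493 UMIs), NEJ677 at 4.96 CPM (4.29 to 5.71, 195 UMIs) and NEJ654 at 3.79 CPM (3.23 to 4.42, 161 UMIs). NEJ146 was 210-fold above NEJ638, the highest of the low tissues, and NEJ638 was 1.94-fold above NEJ677.

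Over the whole section, the low Afp levels were not above those measured beyond the tissue. Off-tissue spots held 12.2 CPM of Afp in NEJ638, 8.38 in NEJ654 and 15.97 in NEJ677. Per spot, Afp UMIs off tissue were 1.04, 1.56 and 2.48 times those on tissue, while those of Alb were 0.951, 0.828 and 1.02 times. How much of the Afp counted in these 3 tissues came from the cells below the spots was not tested. The level in NEJ677 also moved most with the choice of spots, to 8.95 CPM (1.80 times) when all spots with 8000 or more UMIs were taken (NEJ654 moved to 5.73 CPM and NEJ638 to 10.3 CPM). The step from NEJ638 to NEJ677 was then smaller than the section spread. In NEJ677 a single spot held 20 of its 195 UMIs (10.3%) where the next spot held 3. A gene annotated on the opposite strand, Gm43449, overlaps the last part of Afp; it was at 7.60 CPM in NEJ654, 4.15 in NEJ677 and 3.13 in NEJ638, against 0.0348 to 0.120 CPM in the 4 tissues with high Afp. The use of strand in the counting is not given in the sources used here, so low counts of this pair are uncertain.

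**Figure D1:**
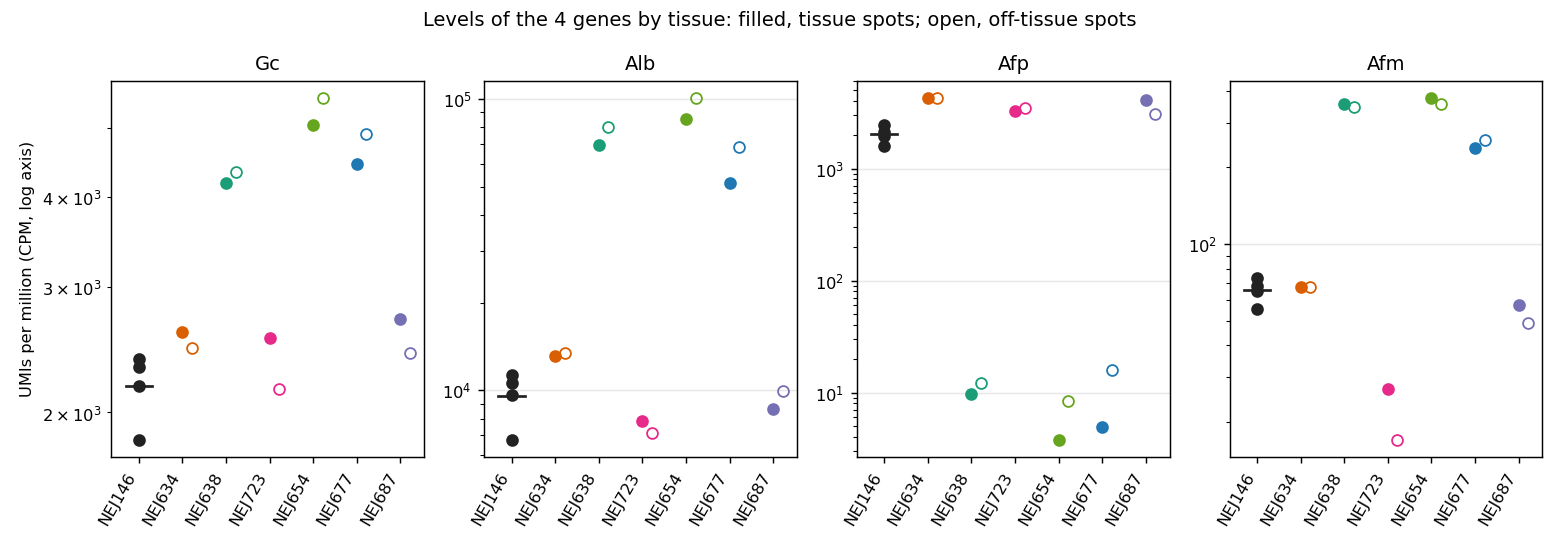
Level of each gene by tissue, in CPM on a log axis. Filled points are sections (tissue spots), the short line is the mean of the 4 NEJ146 sections, and open points are off-tissue spots of the 6 tissues with deposited calls. Alb, Gc and Afm are highest in NEJ638, NEJ654 and NEJ677, where Afp is between 3.79 and 9.63 CPM on tissue and between 8.38 and 15.97 off tissue.

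Ratios within a library do not depend on the total used for CPM. Afp UMIs per 100 Alb UMIs were 47.3 in NEJ687, 41.8 in NEJ723, 32.4 in NEJ634 and 21.4 ± 2.02 (SD, n = 4) in NEJ146, and 0.00442 to 0.0138 in NEJ638, NEJ654 and NEJ677. Afm kept the most even ratio to Alb. It was 0.343 UMIs per 100 Alb UMIs in NEJ723, 0.516 in NEJ634, 0.665 in NEJ687 and 0.701 ± 0.0907 (SD, n = 4) in NEJ146, and between 0.437 and 0.510 in NEJ638, NEJ654 and NEJ677, a 2.04-fold span over tissues in which Alb itself spanned 10.9-fold. Gc per 100 Alb UMIs spanned 5.49-fold, from 5.90 in NEJ654 to 32.4 in NEJ723.

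The size of these differences was set against all genes. The labels call every sample hepatoblastoma and each tissue was kept as its own group, so tissues were not tested against each other. A gene was counted as variable where its highest tissue was 4-fold or more above its lowest on the CPM + 1 scale. The folds that genes span over the tissues in the lists below are on this scale too. Of 8021 genes averaging 10 CPM or more, 22.8% passed, and 3 of the 4 members did, of which Afp reached the mean of 10 CPM through the 4 tissues where it was high, so that its count and rank are descriptions. Their log2 ranges were 9.79 for Afp, 3.75 for Afm and 3.45 for Alb, larger than those of 99.9%, 94.0% and 92.8% of the genes tested. The range of Gc was 1.22 on the log2 scale (2.32-fold), the same as the median of all genes (1.22), so Gc varied no more than an average gene. On plain CPM, Afp in NEJ634 was 1121 times that in NEJ654, a ratio whose denominator was below the off-tissue level.

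The genes around the cluster were examined for the same pattern. GENCODE M21 lists 54 other genes from 1 Mb before Gc to 1 Mb after Afm, 35 of them are in the files and 11 averaged 10 CPM or more. Of those 11, 3 (27.3%) passed 4-fold, a share near the 22.8% of all genes. All 3, Ppbp, Pf4 and 5830473C10Rik, reached the mean of 10 CPM through the tissues where they were high. 5830473C10Rik, which follows Afm on the same strand, spanned 14.7-fold on the CPM + 1 scale and was high where Alb and Afm were high. Its levels were 65.5 CPM in NEJ654, 46.2 in NEJ638 and 45.4 in NEJ677 against 14.7 in NEJ146, 14.5 in NEJ634, 5.54 in NEJ687 and 3.53 in NEJ723. It was counted as a neighbour by position alone, and whether it shares descent with the 4 members was not examined. Pf4 and Ppbp, chemokine genes of platelets and their precursors, had the opposite order. Pf4 was at 95.7 CPM in NEJ723, 80.2 in NEJ687, 55.9 in NEJ146 and 45.4 in NEJ634 and at 3.79 to 6.92 CPM in the other tissues, the 4 tissues with Pf4 above 45 CPM being those in which the neutrophil list summed to 329 CPM or more. The flanking genes differed less between tissues. Ankrd17, before Alb, spanned 2.50-fold and was lowest in NEJ654, and Rassf6, after 5830473C10Rik, spanned 1.86-fold. The remaining 6 genes spanned 1.40-fold to 2.09-fold.

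**Figure D2:**
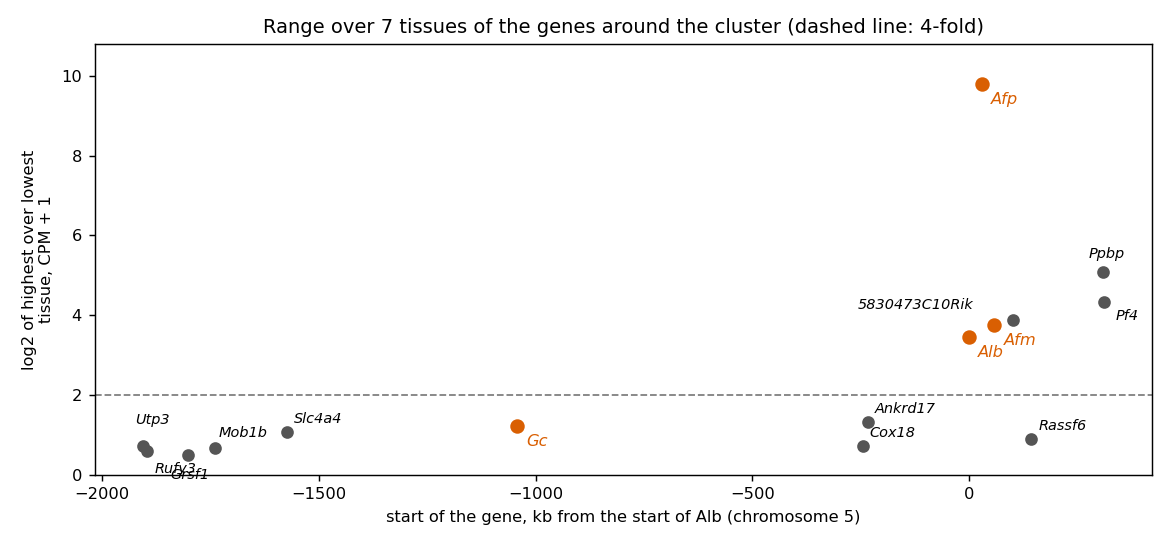
Log2 of the highest over the lowest tissue (CPM + 1) for the 4 members (orange) and the 11 neighbouring genes averaging 10 CPM or more (grey), against the distance of the gene start from the start of Alb in kb. Alb, Afp, Afm and 5830473C10Rik lie above the dashed 4-fold line between Ankrd17 and Rassf6, which lie below it, and Gc lies below it at 1.22.

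Transcription factors known to act on the cluster were read as a group of 20. Of the 15 averaging 10 CPM or more, 6 (40%) passed 4-fold, against 22.8% of all genes, with a median log2 range of 1.56 against 1.22. Among those 6, Foxa1, Dbp and Zbtb20 reached the mean of 10 CPM through the tissues where they were high, so the share is a description. Dbp, a clock factor first found on the albumin promoter, spanned 52.6-fold on the CPM + 1 scale, from 2.99 CPM in NEJ654 to 209 CPM in NEJ638, both tissues with high Alb. Foxa2 and Foxa1 are pioneer factors of the liver. Foxa2 was at 25.4 to 68.4 CPM in NEJ638, NEJ654 and NEJ677 and at 11.5 to 14.6 CPM elsewhere. Foxa1 did not split the tissues so, with 12.9 to 15.5 CPM in those 3, 14.6 in NEJ634, 9.07 in NEJ723, 3.62 in NEJ146 and 2.73 in NEJ687. Trp53, a known repressor of Afp, was at 13.3 to 15.7 CPM in NEJ638, NEJ654 and NEJ677 and at 39.6 to 65.5 CPM elsewhere. The following were named after their values were seen. Cebpa, an activator of liver genes, was at 176 to 187 CPM in NEJ638, NEJ654 and NEJ677 against 43.5 to 69.6 CPM in the others. Of further known repressors of Afp, Zbtb20 was at 20.2 to 23.99 against 5.04 to 9.68 CPM and Zhx2, found through mouse strains that keep Afp after birth, at 3.91 to 5.02 against 1.79 to 2.26 CPM, but Zfhx3 showed no such split, with 4.44 to 5.27 against 2.19 to 7.50 CPM. Hnf4a, a nuclear receptor of hepatocytes, spanned 1.63-fold.

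A list of 20 other plasma protein genes of the hepatocyte was read in the same way, and 1 (5%) passed 4-fold, against 22.8% of all genes, with a median log2 range of 1.53 against 1.22. It was Plg, the plasminogen gene, at 5.70-fold, and Ahsg (fetuin-A), Apoa2 (an apolipoprotein of HDL) and Trf (transferrin) followed at 3.69-fold, 3.48-fold and 3.36-fold. Hpx (hemopexin) spanned 1.65-fold, the least of the list. The ranges of Alb and Afm were above those of the whole list, and that of Gc was inside it. Serpina1c, a plasma protein gene of the hepatocyte marker list and not of these 20, was at 717 to 1253 CPM in NEJ146, NEJ634, NEJ687 and NEJ723 and at 4377 to 8123 CPM in the other 3 tissues, and belongs to a family of near-identical copies. Among 10 genes of receptors, cargo and ligand metabolism, 5 averaged 10 CPM or more and 3 of them (60%) passed 4-fold, with a median log2 range of 2.23 against the same 22.8% and 1.22. Gsn, which encodes gelsolin, the other plasma protein that binds actin, was at 2185 CPM in NEJ687, 1372 in NEJ146, 1273 in NEJ634 and 830.1 in NEJ723, against 30.4 to 42.9 CPM in NEJ638, NEJ654 and NEJ677. Cyp27a1, a hydroxylase of bile acid and vitamin D metabolism, was at 219 to 298 CPM in the latter 3 and 17.96 to 76.3 CPM in the others, and Ttpa, the intracellular vitamin E transfer protein, at 316 to 411 against 86.8 to 119 CPM. Fcgrt, the receptor that rescues albumin from degradation, and Scarb1, a lipoprotein receptor, spanned 1.98-fold and 1.82-fold.

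A list of 10 genes known to be expressed in fetal liver and in liver tumours was also read. Of these, 7 averaged 10 CPM or more and 6 of the 7 passed 4-fold, but the list was chosen with earlier results known and Igf2, Dlk1 and Peg3 reached that mean through the tissues where they were high, so the count is a description. Igf2, the fetal growth factor, was at 81.9 to 435 CPM in NEJ146, NEJ634, NEJ723 and NEJ687 and at 0.117 to 0.255 CPM in NEJ638, NEJ654 and NEJ677, the split seen for Afp. Spink1, a protease inhibitor, was at 96.1 to 755 against 1.11 to 29.6 CPM, and Dlk1, a marker of hepatoblasts, at 26.9 to 108 against 0.0255 to 0.165 CPM. H19, the imprinted noncoding RNA beside Igf2, did not split the tissues as Afp did. It was at 9068 CPM in NEJ687, 6062 in NEJ146 and 2872 in NEJ634 but at 11.96 CPM in NEJ723, below its 80.2 CPM in NEJ638, while Afp in NEJ723 was 3280.2 CPM.

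Genes whose pattern over the 7 tissues was most like that of each member were ranked among 8011 genes by the root mean square difference of centred log2(CPM + 1). For Alb they were Tlcd2 (0.14), Esr1 (0.20), the oestrogen receptor gene, and F5 (0.22), coagulation factor V, with Afm at rank 15 (0.32). For Afm they were Clec2d (0.21), Rgl3 (0.21) and Slc46a3 (0.22), with Alb at rank 22. For Gc they were Ngly1 (0.09), Tcta (0.10) and Arap1 (0.10). For Afp they were Bex1 (0.67), Phgdh (0.79), the first enzyme of serine synthesis, and Igf2 (0.84). Esr1, Rgl3, Slc46a3, Bex1, Phgdh and Igf2, like Afp itself, reached the mean of 10 CPM required for this ranking through the tissues where they were high. The ranks are therefore descriptions. In them, Alb and Afm were near each other, while Afp ranked behind all 8011 genes for each of Alb, Afm and Gc.

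Within sections, the spread between spots was described by the coefficient of variation (CV) with counting noise subtracted. Alb was most uneven in NEJ146, and so was Afp among the 4 tissues where it was high. The spots of NEJ146 were taken by their UMIs and those of the other tissues by deposited calls. Of the NEJ146 spots so taken, 69.6% to 81.9% had a low mitochondrial share. The spread, bins and correlations over NEJ146 spots were not recomputed on those alone, and the part of the spot rule in them was not tested. The CV of Afp was 0.75 to 0.90 in the 4 NEJ146 sections, against 0.38 in NEJ634, 0.25 in NEJ687 and 0.22 in NEJ723. It was 1.21 to 4.38 in NEJ638, NEJ654 and NEJ677, where a spot held 0.0669 to 0.144 Afp UMIs on average, the value of 4.38 being that of NEJ677, with 20 of its 195 Afp UMIs in 1 spot. In NEJ146, the spot at the 90th percentile of Afp per 10000 UMIs held 10.3 to 12.7 times that at the 10th percentile, against 2.16 to 2.75 times in the other 3 tissues with high Afp. The CV of Alb was 0.72 to 0.94 in NEJ146, 0.31 to 0.41 in NEJ634, NEJ723 and NEJ687 and 0.21 to 0.28 in NEJ638, NEJ654 and NEJ677. That of Gc was 0.24 to 0.25 in NEJ146 and 0.10 to 0.18 elsewhere. Adjacent spots shared 0.65 to 0.84 of this variance for Alb and Afp in the NEJ146 sections 1 to 3 and 0.70 to 0.73 in section 4, so that high and low spots lay in patches. This was not particular to NEJ146. In NEJ634, NEJ723 and NEJ687 the share was 0.58, 0.78 and 0.61 for Alb and 0.74, 0.47 and 0.53 for Afp. For Alb it was 0.56 to 0.59 in NEJ638, NEJ654 and NEJ677.

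Every tissue spot of NEJ634 had an Afp UMI, as did 94.7% in NEJ723, 95.4% in NEJ687 and 99.7% to 100% in the NEJ146 sections. After each spot was thinned to 5000 UMIs, leaving out shallower spots, the expected share was 94.8% to 97.4% in NEJ146 and 99.9998% in NEJ723 and NEJ687. In NEJ638, NEJ654 and NEJ677 the unthinned shares of 11.8%, 6.15% and 6.22% became 4.39%, 1.82% and 2.13%. For Alb the share at 5000 UMIs was at least 99.9991% in every section.

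**Figure D3:**
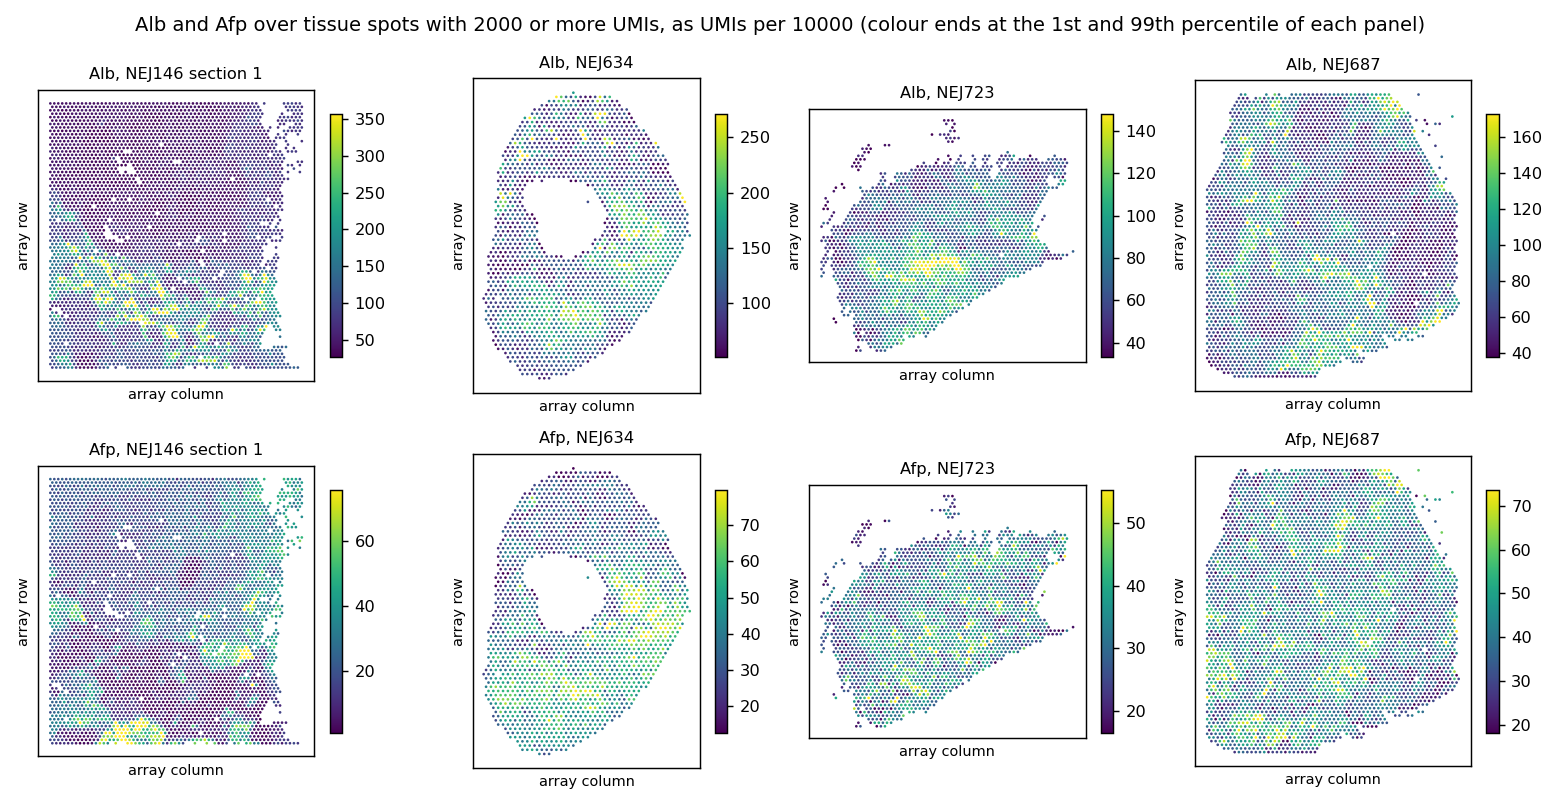
Alb (top) and Afp (bottom) in UMIs per 10000 UMIs of the spot at the array positions of tissue spots with 2000 or more UMIs, for NEJ146 section 1, NEJ634, NEJ723 and NEJ687, with colours ending at the 1st and 99th percentile of each panel. In NEJ146 a band of high Alb crosses the lower part of the section, where Afp is low apart from separate patches, and in NEJ634 both genes are high in overlapping areas.

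The patches of Alb and Afp in NEJ146 were described by ordering the spots with 5000 or more UMIs by their Alb share and dividing them into 5 bins of equal number, with levels per 1000000 UMIs other than Alb. The order was made with Alb, so its own levels are no finding. Afp did not follow it evenly. From the lowest to the highest Alb bin, Afp was 1441 ± 186, 2159 ± 511, 2780.2 ± 707, 3043 ± 527 and 1085 ± 62.99 CPM (SD, n = 4 sections), so the bin richest in Alb held the least Afp. The 4 erythroid genes went from 15875 ± 1469 to 2522 ± 287 CPM over the same bins, 5.24 to 7.31 times in the 4 sections, and the neutrophil list was at 199.5 ± 64.2 and 198.9 ± 35.6 CPM in the end bins and at 492 ± 153 CPM in the middle bin. Their part in the pattern of Afp was not tested. Gc and Afm were highest in the highest Alb bin, 1.54 to 1.65 times and 1.45 to 1.68 times their level in the lowest Alb bin in the 4 sections. The pericentral gene list (Glul, Cyp2e1, Cyp1a2, Oat, Slc1a2) went from 176 ± 17.7 to 1029.8 ± 57.5 CPM and the periportal list (Cyp2f2, Hal, Hsd17b13, Ass1, Pck1) from 1975 ± 116 to 3249 ± 247 CPM over the same bins, and H19, a noncoding RNA of fetal liver, went from 7448 ± 474 to 3958 ± 215 CPM. The other 9 fetal and tumour genes summed to 459.9 ± 55.4 CPM in the lowest, 690.4 ± 117 in the fourth and 412 ± 31.7 in the highest bin. Mitochondrial genes were within 0.984 to 1.26 times between the end bins. In NEJ634 the same bins gave 3008, 3649, 4129, 4879 and 5688 CPM of Afp, an even increase with Alb, while the 4 erythroid genes went from 1473 to 319.99 CPM. The neutrophil list in NEJ634 went from 1302 to 521 CPM. In NEJ723 Afp was 2693 CPM in the lowest and 3803 CPM in the highest bin, with the 4 erythroid genes at 3143 and 794 CPM and the neutrophil list at 275 and 473 CPM. In NEJ687 Afp was 3491 and 4324 CPM, with the erythroid genes at 11228 and 5750.2 CPM and the neutrophil list at 809 and 1241 CPM. The pericentral list went from 345 to 190 CPM in NEJ634, from 94.2 to 75.4 in NEJ723 and from 176 to 260 in NEJ687.

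Pairs of members were correlated over the tissue spots of each section, as a partial Spearman correlation given the log10 UMIs of the spot, and as a moment correlation with counting noise subtracted. Both are descriptions, since spots of a section share a library, its depth and its neighbourhood. Gc and Alb were correlated above 0 in all 7 tissues, with a partial Spearman correlation of 0.19 to 0.65 and a noise-subtracted value of 0.69 to 0.86, although they lie 1003 kb apart. Alb and Afp, 14.134 kb apart, had no common sign. Their noise-subtracted correlation was 0.52 in NEJ634 and NEJ723, 0.03 in NEJ687 and -0.27 in NEJ146, where the 4 sections all lay below 0, and their partial Spearman correlation was 0.60, 0.41, 0.23 and -0.03. In NEJ638 both values were below 0 (-0.38 and -0.15), with 405 spots holding an Afp UMI.

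By the noise-subtracted correlation, Afm went with Gc and Alb in 6 of the 7 tissues. The noise-subtracted correlation was 0.68 to 0.98 with Gc and 0.56 to 0.93 with Alb outside NEJ634, where it was -0.02 and 0.09. The partial Spearman values of these pairs were 0.03 to 0.26 in the 6 tissues, which at the few Afm UMIs of a spot (0.490 to 6.61 on average) is a weak relation. The median partial Spearman correlation of Afm with all genes compared was -0.0067 to 0.066 over the 7 tissues. In NEJ687 that median was 0.051, above the 0.028 of Alb and Afm. The highest noise-subtracted values were those of NEJ723, where 229 spots held 2 or more Afm UMIs. Afp and Afm had noise-subtracted values of -0.54 in NEJ146 and -0.50 in NEJ634 but 0.33 in NEJ723 and 0.27 in NEJ687. Gc and Afp had 0.58 in NEJ634 and 0.47 in NEJ723 but -0.37 in NEJ146 and -0.0026 in NEJ687.

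**Figure D4:**
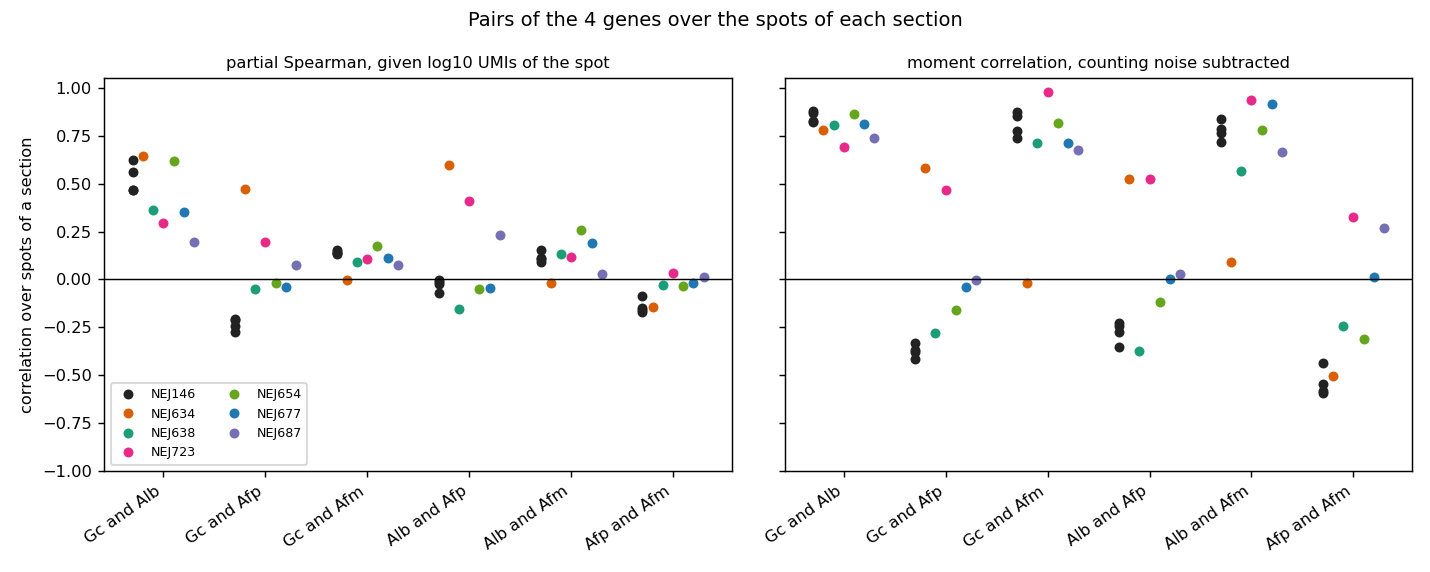
Correlation over spots for each pair of members, as partial Spearman given log10 UMIs (left) and as moment correlation with counting noise subtracted (right), 1 point per section coloured by tissue. Gc and Alb are above 0 in every section, and the pairs with Afp spread from below -0.25 to above 0.5 on the right.

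Over spots, the genes with the highest median partial Spearman correlation with each member, among 2678 genes averaging 50 CPM or more, included other secreted proteins. For Gc they were Hpx (0.34), Trf (0.33) and C3 (0.33), complement component 3. For Alb they were Serpina3k (0.58, over 6 tissues), Cyp2f2 (0.57) and Trf (0.52). Trf was the one of these above 0.15 in all 7 tissues (0.16 to 0.78). For Afp they were A2m (0.25, over 4 tissues), Serpina1e (0.22) and Trf (0.21), and for Afm they were Pck1 (0.17), Fbp1 (0.15) and Ass1 (0.15), enzymes of gluconeogenesis and the urea cycle. Serpina3k and Serpina1e belong to families of near-identical copies, so their counts are uncertain. Of the 20 plasma protein genes, 20 in NEJ723, 19 in NEJ634, 16 in NEJ638, 15 in NEJ654, 14 in NEJ677, 13 in NEJ146 and 10 in NEJ687 correlated above 0 with Alb. Their median correlation was 0.51 in NEJ634, 0.33 in NEJ723 and 0.00234 to 0.26 in the other tissues, and that of all genes was -0.03 to -0.00215 over the 7 tissues. In NEJ638, NEJ654 and NEJ677, Apoa2 (-0.34, -0.54, -0.55) and Rbp4 (-0.33, -0.48, -0.50) were the lowest of them.

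The position of the members along the lobule was read by ranking the spots of a section from pericentral to periportal with the 2 lists of 5 genes given above, which hold no member, and dividing them into 5 bins. The lists opposed each other over spots in NEJ638, NEJ654 and NEJ677 (partial Spearman correlation of -0.79, -0.86 and -0.67) but not in NEJ146, NEJ634, NEJ723 and NEJ687 (0.01 to 0.31), so the order has the sense of a lobule in the former 3 alone. There, Alb, Gc and Afm were higher at the periportal end. Alb went from 57349 to 82616 CPM in NEJ638, from 61161 to 108246 in NEJ654 and from 35729 to 63693 in NEJ677, with each bin above the one before it, and its folds were 1.44, 1.77 and 1.78. The folds of Gc were 1.21, 1.34 and 1.18, and those of Afm were 1.27, 1.48 and 1.39.

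Afp values were higher in the pericentral than in the periportal bin of these 3 tissues, but rested on few UMIs. In NEJ638 it was at 18.8 (95% exact Poisson interval 16.5 to 21.4), 8.50, 7.11, 6.09 and 4.82 (3.56 to 6.39) CPM from the pericentral to the periportal bin, 3.40-fold on the CPM + 1 scale. The first bin alone was above the off-tissue level of 12.2 CPM. In NEJ654 the end bins held 5.64 (4.28 to 7.31) and 2.68 (1.73 to 3.95) CPM and in NEJ677 7.62 (5.90 to 9.67) and 3.02 (1.95 to 4.45) CPM, all below the off-tissue level, and the bins between did not fall evenly. Without the spot of most Afp UMIs, an alternative chosen after seeing the data, the folds were 3.27, 1.81 and 2.15. In NEJ654 and NEJ677 that spot lay outside the end bins, so its removal could not change their folds.

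In the other tissues, Alb in NEJ634 had the largest fold between the end bins, 1.61, with Gc 1.27-fold and Afp 1.22-fold higher at the same end. The 7 tissues, including the 4 in which the lists did not oppose each other, were entered in an exact permutation test that flips the signs of the tissues (two-sided, adjusted by Benjamini-Hochberg over the 4 members). The mean log2 of the periportal over the pericentral bin was 0.20 ± 0.17 (SD, n = 7) for Gc (exact p = 0.0313, adjusted p = 0.104), 0.40 ± 0.43 for Alb and 0.23 ± 0.25 for Afm (exact p = 0.0781, adjusted p = 0.104 for both) and -0.56 ± 0.71 for Afp (exact p = 0.125, adjusted p = 0.125). The log2 value was above 0 in 6 of 7 tissues for each of Gc, Alb and Afm and in 2 of 7 for Afp. These counts include values near 0, such as Afm in NEJ146 (1.002-fold) and Afp in NEJ723 (1.009-fold). The smallest p that 7 tissues allow is 0.0156, which becomes 0.0625 for a member that reaches it alone, so the test has no bearing on a gradient within the 3 tissues with opposed lists.

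**Figure D5:**
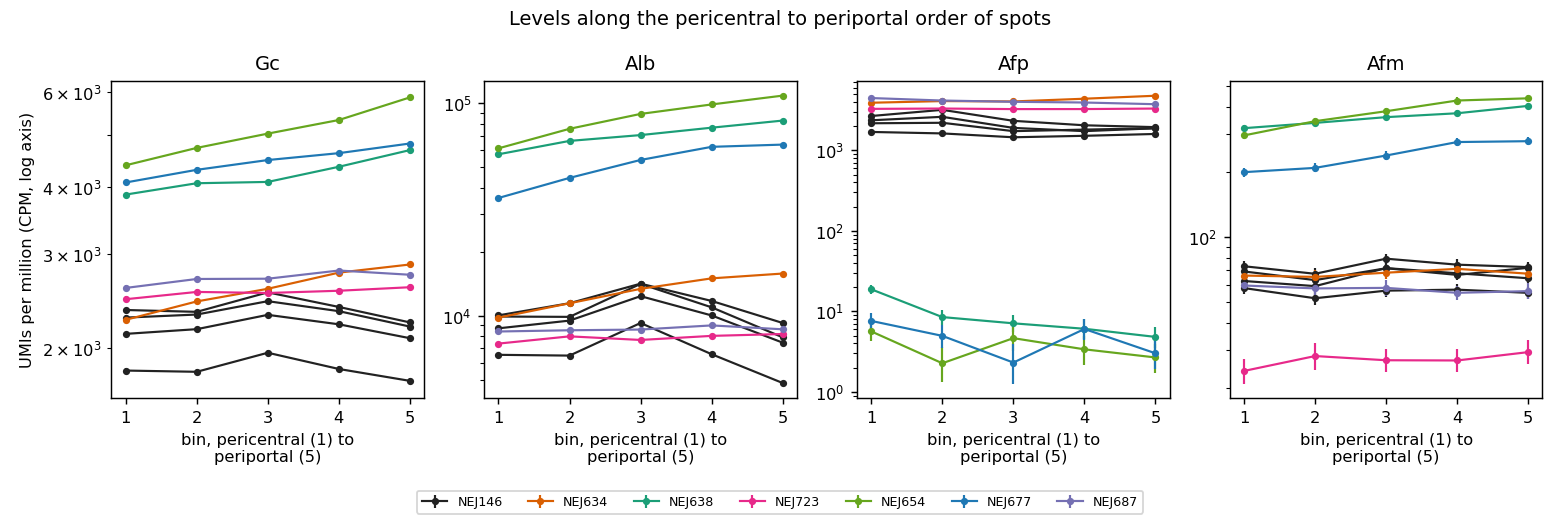
Level of each member in 5 bins of spots ordered from pericentral (1) to periportal (5), in CPM on a log axis, with 1 line per section coloured by tissue and bars for 95% exact Poisson intervals. Alb, Gc and Afm increase to the right in NEJ638, NEJ654 and NEJ677, and Afp in NEJ638 goes from 18.8 to 4.82 CPM.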

How the data were processed

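For the spatial data, the study's methods describe perfusion of the ABC-Myc mouse with buffered saline and EDTA, then with collagenase, before the tissue was taken. The part of this treatment in the RNA captured off tissue was not tested. Flash frozen tissue was embedded in OCT and cut at 10 µm onto Visium slides. The matrices deposited by the authors hold UMI counts, neither normalized nor filtered, made with Cell Ranger 6.0 (NEJ146) or Space Ranger 1.3 on mm10 (the other tissues) per the submitters' processing notes, while the matrix headers name Cell Ranger 4. Position files with array coordinates and in-tissue calls were deposited for the 6 tissues with 1 section. NEJ146 spots took the coordinates of the same barcodes, of which 4989 were shared by all 10 sections because barcodes mark slide positions. No column of per-sample values was left unused.

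Counts were summed over tissue spots and divided by their total (CPM). NEJ146 is the mean ± SD of 4 adjacent sections, which differed by more than sampling noise (chi-square per degree of freedom 14.8 to 91.6) and were kept apart. Spots were not filtered further, and doublets were not called. Intervals are 95% exact Poisson intervals, and PCR and capture make them cover counting error only. Named genes were the 4 members, the 3 genes most like each member over tissues and over spots, and the 4 genes of widest range in each list, and any other gene named was chosen after its values were seen. The members and lists were chosen with earlier results of these data known. Alternatives tried were the tissue rule, the denominator, the pseudocount (1 against 5 CPM), thresholds, left-out sections or tissues, and other correlations. Scripts used Python 3.11.15, numpy 2.4.6 and scipy 1.17.1 and were tested on simulated data. The human MYC transgene is not a row of the files, and bulk and single-cell data of the study were not used here. Sums over 4 erythroid genes, the neutrophil list and the fetal list without H19 were added after seeing the data. Some results of the gene lists are not reported here.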

Additional observations from a re-analysis of the deposited data

Results flagged for a closer look

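Values outside the comparisons came from off-tissue spots of the 6 tissues with deposited calls. Gc was at 2463, 4335, 2157, 5506, 4912 and 2419 CPM off tissue in NEJ634, NEJ638, NEJ723, NEJ654, NEJ677 and NEJ687. Alb was at 13421, 80358, 7133, 100804, 68486 and 9915 CPM in the same order. Afp was at 4255, 12.2, 3475, 8.38, 15.97 and 3043 CPM, and Afm at 67.8, 347, 17.01, 355, 256 and 49.1 CPM. These spots had a mitochondrial share of 5.19% to 8.85% of UMIs, against 2.46% to 3.86% on tissue. In NEJ677, 410.0 Afp UMIs lay off tissue, with at most 4 in a spot. The part of off-tissue RNA in the tissue levels was not tested.

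Of 18 groups of 4 NEJ146 sections examined for a section far from the others, 1 was past Dixon's 95% critical value, which by its definition chance passes in about 1 in 20 groups. The between-spot variation of Afm was 0.335 in section 3, against 0.28 to 0.29 in the other sections.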

How the results depend on the processing

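Over 10 other settings of the lobule order no member's mean changed sign. Nor did that of Afp without the spot of most Afp UMIs, an alternative chosen after seeing the data that left the end bins of NEJ654 and NEJ677 unchanged. The adjusted p was 0.0625 to 0.25 over the 10 settings, and a test of this size says nothing about stability. The log2 range of Gc was 0.99 without NEJ146. That of Afp was 9.29 with 8000 or more UMIs in every section and 8.92 with a pseudocount of 5 CPM, and that of Afm was 3.57 with the latter. Of 8021 genes, 4990.0 passed 2-fold and 769 passed 8-fold, while 3039 of 12648 genes averaging 1 CPM or more and 738 of 2685 averaging 50 CPM or more passed 4-fold. With counting noise subtracted, the mean correlation over tissues was 0.79 for Gc and Alb, 0.67 for Gc and Afm, 0.68 for Alb and Afm and -0.14 for Afp and Afm, against partial Spearman means of 0.43, 0.10, 0.12 and -0.05. The measures differ in construction beyond the noise subtraction, and the part of counting noise in the gap was not tested. Of the levels under other tissue rules and denominators, the largest move was that of Afp in NEJ677, 1.80 times, and no other level moved by over 1.5 times except Afp in NEJ654, to 5.73 CPM from 3.79. Leaving out each NEJ146 section moved its levels by at most 1.10 times. No paired analysis was possible because no 2 groups with replicates share replicate numbers, 6 of the 7 tissues having 1 section. Afp rested on 161 to 493 UMIs in NEJ638, NEJ654 and NEJ677, and Afm on 0.490 to 6.61 UMIs per spot.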
